A study of Mus musculus with 38 samples.

Results

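Ubiquitin ligases, deubiquitinases and adaptors are the enzymes that attach ubiquitin to proteins, take it off again, or bring a target to the enzyme. In Neuro2A cells under retinoic acid they were followed with 34 named probes out of 576 on the array, chosen because the platform gene symbol begins with a family name of these enzymes (Usp, Otud, Rnf, Trim, Nedd4, Klhl, Dcaf and the like), that is, by name alone. The 34 genes divide into 6 peptidases, or deubiquitinases (Usp and Otud), and 28 ligases and adaptors. One gene, Ubap2l, came in by its first letters (Uba): it is a protein with a ubiquitin-associated domain and not an activating enzyme.

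Neuro2A is a mouse neuroblastoma line that grows neurites when given retinoic acid, a vitamin A derivative that acts through nuclear receptors. The time course had 7 control arrays at 0 h, taken after 48 h in medium with 10% serum, and arrays taken after 1 h (5 arrays), 3 h (5), 6 h (7), 12 h (7) and 24 h (7) in 20 uM all-trans-retinoic acid with 2% serum. Every replicate pooled 4 to 6 plates of this 1 cell line, and each array was a single-colour hybridisation. Neither a vehicle group nor a group with lowered serum alone is named in the labels, so each comparison with 0 h holds the drug, the serum and the time together, and all 5 comparisons share the control arrays. In such bulk RNA, fewer cells with a transcript and less of it per cell cannot be told apart.

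Ubiquitin is passed from an activating enzyme to a conjugating enzyme and then, with a ligase, to the target. HECT ligases carry the ubiquitin themselves before handing it on, RING ligases hold conjugating enzyme and target together, and cullin ligases use exchangeable adaptors (F-box, BTB, Kelch and DCAF proteins) to choose targets. Deubiquitinases cut ubiquitin off again. In neurons this system sets the life span of proteins in growing axons and dendrites and at synapses.

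Levels are log2 of the deposited intensity after quantile normalization, so that 1 unit is a factor of 2. Levels of different probes do not rank their transcripts by abundance, and a probe called dimmer has a lower intensity only. The floor is the lowest value, 0.540 on the deposited scale, which 30 of the 38 arrays share. For a probe at that value only a bound on its level is known. Changes carry the standard error (SE) of a limma fit over all 576 probes and 38 arrays, and adjusted p-values are Benjamini-Hochberg values over all 576 probes with a threshold of 0.05. Late arrays had a narrower spread of values: their interquartile range on the deposited log2 scale averaged 1.51 ± 0.22 for 0 h, 1.14 ± 0.41 for 6 h, 1.13 ± 0.54 for 12 h and 0.88 ± 0.16 for 24 h (SD, n = 7 each), and 8 of the arrays from 6 h on never reached the floor. Of 20 neuronal markers 4 were measured, and none passed the test at any time (Myt1, Myt1l, St18 and Syt11). Myt1, Myt1l and Syt11 were above the floor on every array and St18 was at it on 4. Of 15 markers of other cells 2 were measured, Pxdn and Phldb1, at levels of 0.68 to 1.16 and 0.00 to 0.40 over the 6 group means.

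None of the 34 genes passed the threshold at any time. For 1, 3, 6, 12 and 24 h against 0 h the smallest adjusted limma p among them was 0.988, 0.528, 0.402, 0.960 and 0.268, and the share of all probes called was 0%, 0%, 0.174%, 0% and 1.04%. At an unadjusted p under 0.05 the 1 h comparison held 3 of the 34 (1 higher and 2 lower), where 1.39% of all probes passed, 0.521% higher and 0.868% lower. The 3 h comparison held 4 (2 higher and 2 lower; 5.38% of all probes, 3.99% higher and 1.39% lower). The 6 h comparison held 5 (1 higher and 4 lower; 5.73% of all probes, 2.6% higher and 3.12% lower). The 12 h comparison held 3 (1 higher and 2 lower; 3.99% of all probes, 2.08% higher and 1.91% lower). The 24 h comparison held 5 (2 higher and 3 lower; 6.77% of all probes, 2.95% higher and 3.82% lower). In the F test over the 5 times 0 of 34 passed (smallest adjusted p = 0.402) and 4 had an unadjusted p under 0.05, against 1.04% and 6.42% of all probes. For late (12 and 24 h) minus early (1 and 3 h), 0 of 34 passed, against 0.347% of all probes, and 3 had an unadjusted p under 0.05 (2 higher and 1 lower), against 13.5% of all probes (6.42% higher and 7.12% lower). The median SE of a member's log2 change was 0.24 for the 1 and 3 h comparisons and 0.22 for the later ones.

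**Figure D1:**
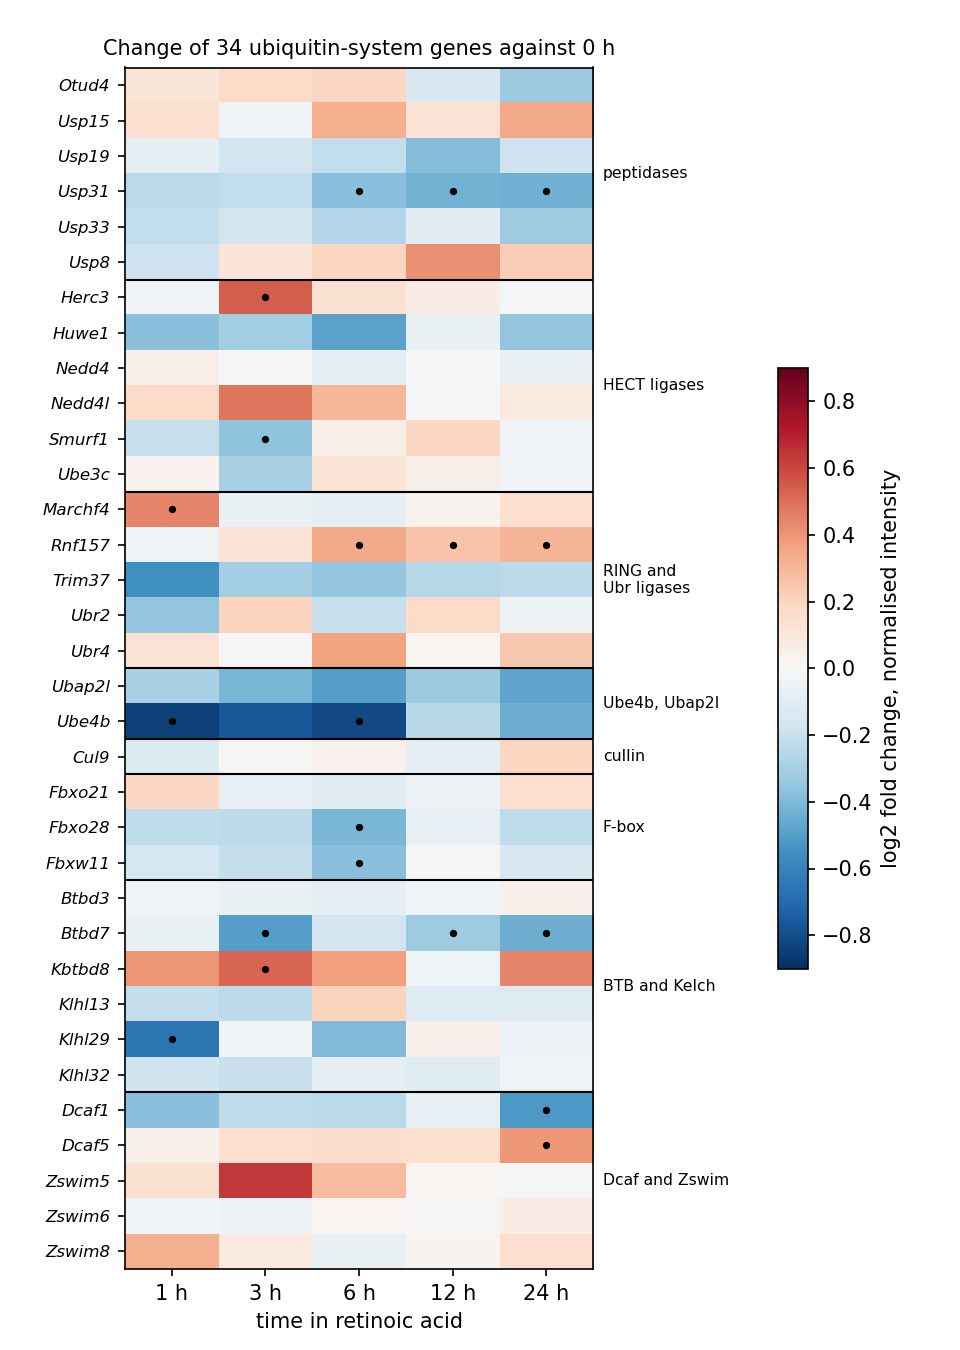
Log2 fold change of normalised intensity against 0 h (colour) for the 34 genes (rows, grouped by role) at each time in retinoic acid (columns). Dots mark an unadjusted limma p under 0.05. No gene passed after adjustment, and Usp31 is below 0 while Rnf157 is above 0 with a dot at 6, 12 and 24 h.

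After quantile normalization more members lay below their control mean than above it, but with array quality weights this turned for the later times. For 1, 3, 6, 12 and 24 h, 22, 22, 19, 19 and 21 of the 34 were lower, with median log2 changes of -0.07, -0.07, -0.08, -0.02 and -0.03. Over all 576 probes the shares below 0 were 47.2%, 51.2%, 53.5%, 52.4% and 52.1%, and the medians ran from -0.01 to 0.00. Over the 473 named probes, from which the members were chosen, the shares were 53.3%, 57.7%, 48.8%, 49.0% and 46.5%. Their medians ran from -0.03 to 0.02. With array quality weights 16, 16 and 14 of 34 were lower for 6, 12 and 24 h, with medians of 0.02, 0.01 and 0.03. These times share the controls, so the counts are not independent of each other.

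The peptidases, all 6 of which were above the floor on every array, went both ways. At 24 h 4 were lower and 2 higher, with a median log2 change of -0.25, while 17 of the 28 ligases and adaptors were lower and 11 higher, with a median of -0.03. At 1 h 4 of 6 peptidases were lower (median -0.13), as were 18 of 28 ligases and adaptors (median -0.05). At 3 h the counts were 4 of 6 (median -0.10) and 18 of 28 (median -0.07). At 12 h they were 4 of 6 (median -0.12) and 15 of 28 (median -0.01). At 6 h the order of the medians was reversed, with 3 of 6 peptidases lower (median -0.02) and 16 of 28 ligases and adaptors (median -0.08). For late minus early, 4 of 6 peptidases were lower (median -0.09), against 10 of 28 ligases and adaptors (median 0.08) and 50.5% of all probes. With the array range as covariate 3 of 6 peptidases (median 0.01) and 14 of 28 ligases and adaptors (median 0.02) were lower late minus early. The array range also differed between the times, so this fit cannot separate range from time. Without the arrays that never reach the floor, 4 of 6 peptidases (median -0.17) and 14 of 28 ligases and adaptors (median -0.0054) were lower late minus early.

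Single arrays moved these class medians. The 1 h peptidase median ran from -0.18 without control replicate 6 to -0.0048 without 1 h replicate 1, and that of the ligases and adaptors from -0.10 without control replicate 3 to -0.024 without control replicate 2. The 24 h peptidase median ran from -0.32 without 24 h replicate 7 to -0.17 without control replicate 2. For the ligases and adaptors it ran from -0.055 without 24 h replicate 5 to 0.0082 without 24 h replicate 4. Late minus early, the peptidase median lay between -0.12 without 24 h replicate 7 and -0.054 without 1 h replicate 5, and the other class between 0.061 and 0.10.

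Set on the control mean of each gene and averaged on each array, the peptidases stood at -0.12 ± 0.09 (SD, n = 7) at 24 h, against a spread of 0.21 (SD, n = 7) among the controls. The ligases and adaptors stood at -0.04 ± 0.08 at 24 h, against a control spread of 0.08. The difference of the class means, peptidases minus ligases and adaptors, was below 0 on 6 of 7 arrays at 24 h, with values from -0.23 to 0.08, and on 2 of 7 control arrays, with values from -0.43 to 0.13. At 6 h it ran from -0.24 to 0.38 and at 12 h from -0.37 to 0.23. The difference was above 0 on 3 of 5 arrays at 1 h, 1 of 5 at 3 h, 4 of 7 at 6 h and 3 of 7 at 12 h. The groups overlapped at each time. Genes are not replicates, so this contrast of classes carries no p.

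**Figure D2:**
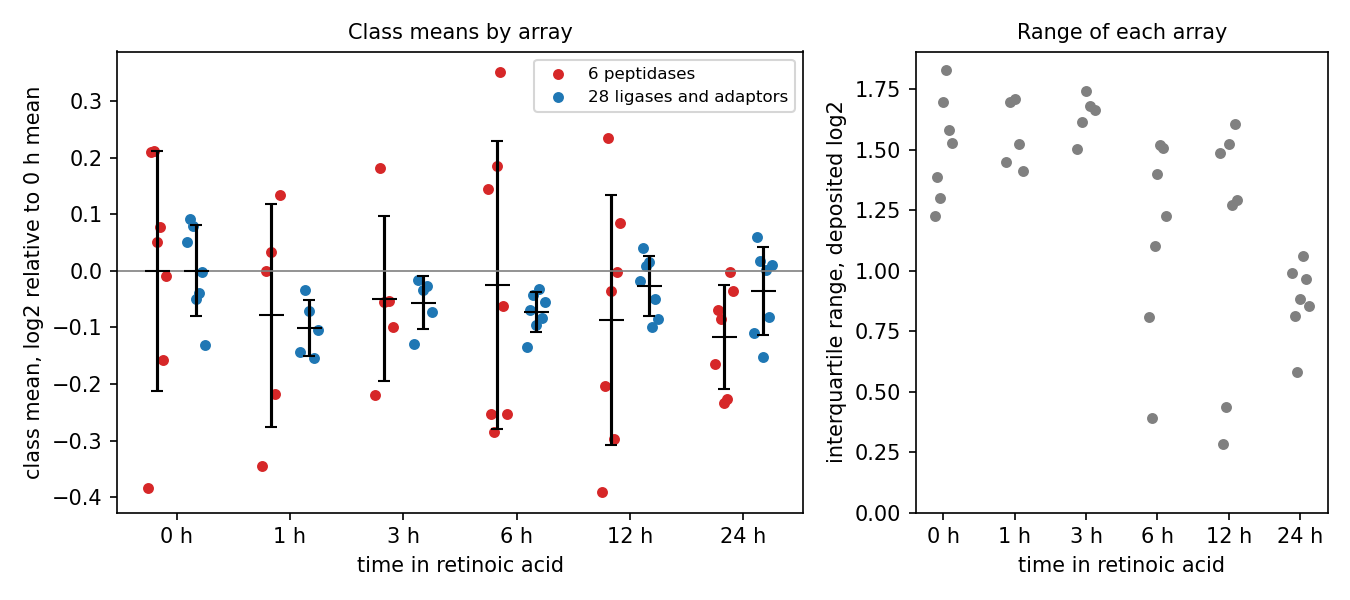
Left, mean of the 6 peptidases and of the 28 ligases and adaptors on each array, in log2 units relative to each gene's 0 h mean, with black bars for the group mean and SD. Right, interquartile range of the deposited log2 values of each array. The peptidase means at 24 h lie between -0.23 and 0.00 and inside the range of the controls, and the 24 h arrays have a mean range of 0.88 against 1.51 at 0 h.

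The contrast of the classes depended on the scaling. With no normalization after deposit all 6 peptidases were lower at 24 h (median log2 -0.61) and 16 of 28 ligases and adaptors (median -0.16), and after median centring it was again 6 of 6 (median -0.67), with 17 of 28 (median -0.23). Both scalings keep the narrower range of the late arrays. Among the 107 probes whose mean level reached that of Usp33, the dimmest peptidase, 94.4% were lower at 24 h on the deposited values, with a median of -0.51, against 55.1% and a median of -0.05 after quantile normalization. The 9 ligases and adaptors at that level were all lower on the deposited values, with a median of -0.51. With the array range as a covariate 3 of 6 peptidases were lower at 24 h (median -0.12). Without the arrays that never reach the floor, 4 of 6 peptidases (median -0.36) and 18 of 28 ligases and adaptors (median -0.08) were lower at 24 h.

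Usp31, a little-studied peptidase, had the lowest values of the peptidases against its controls at 12 and 24 h. Its mean level for 0, 1, 3, 6, 12 and 24 h was 1.03, 0.79, 0.81, 0.66, 0.61 and 0.60, with SDs of 0.22, 0.23, 0.30, 0.49, 0.24 and 0.35. The 24 h arrays ran from 0.14 to 1.12 with a median of 0.60, against 0.79 to 1.38 with a median of 1.00 at 0 h, so the groups overlapped and 6 of 7 arrays at 24 h lay below the control mean. The log2 change was -0.37 ± 0.17 (SE) at 6 h, -0.43 ± 0.17 at 12 h and -0.43 ± 0.17 at 24 h, where the fold was 1.35 (unadjusted p = 0.0165, limma adjusted p = 0.490). On the deposited values Usp31 passed at 24 h (log2 -0.75, limma adjusted p = 0.0102, where 1.91% of all probes passed) and with median centring (-0.81, adjusted p = 0.00839, 2.08% of all probes). With the array range as covariate the value was -0.46 (adjusted p = 0.554).

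Otud4, a deubiquitinase of the OTU family, was lower late than early. On the 5 arrays at 1 h it stood at 0.83, 1.16, 1.00, 1.26 and 1.49, and at 3 h at 1.05, 1.17, 1.09, 1.43 and 1.33. At 12 h it ran from 0.60 to 1.34 with a median of 0.86, and at 24 h from 0.24 to 1.47 with a median of 0.71. The late arrays were thus mostly below the early ones but overlapped them, and 12 of 14 lay below the early mean. Late minus early was -0.38 ± 0.14 (SE) on the log2 scale (unadjusted p = 0.00999, limma adjusted p = 0.224). Against 0 h (1.04 ± 0.36, SD, n = 7) the 24 h value was -0.32 ± 0.18 (adjusted p = 0.565). The late minus early value passed on the deposited values (-0.79, adjusted p = 0.00745, 13.5% of all probes), with median centring (-0.86, adjusted p = 0.00509, 11.3%), with array quality weights (-0.38, adjusted p = 0.00705, 28.8%) and with the replicate number as a block (-0.50, adjusted p = 0.00755, 1.39%). It did not pass with the array range as covariate (-0.31, adjusted p = 0.451) or with an offset of 0.5 (-0.30, adjusted p = 0.234). Trend and robust variances (-0.38, adjusted p = 0.0829) and leaving out dim probes (-0.38, adjusted p = 0.194) gave no call either. The same held without the arrays that never reach the floor (-0.60, adjusted p = 0.0737) and with only the arrays compared (-0.38, adjusted p = 0.145).

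The remaining peptidases did not reach an unadjusted p under 0.05 in any contrast. Usp8, which works at endosomes on the sorting of receptors, averaged 0.88, 0.70, 1.00, 1.07, 1.29 and 1.10 over 0, 1, 3, 6, 12 and 24 h, and its largest change was 0.41 ± 0.25 (SE) at 12 h. Usp15, known from human cells for acting on the TGF-beta pathway, was at 0.34 ± 0.28 at 24 h. Usp19, which has a form anchored in the endoplasmic reticulum, was at -0.39 ± 0.20 at 12 h, when 7 of 7 arrays lay below the control mean, and at -0.19 ± 0.20 at 24 h. Usp33 was at -0.32 ± 0.24 at 24 h. Usp19 passed late minus early on the deposited values (-0.49, limma adjusted p = 0.0108) and with median centring (-0.56, adjusted p = 0.00522). On the deposited values 8 of 34 members passed late minus early, where 13.5% of all probes did: Nedd4, Otud4, Usp19, Usp31 and Zswim8 were lower (6.25% of all probes) and Rnf157, Smurf1 and Zswim6 higher.

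Rnf157, a RING ligase of the brain known from rodent neurons for a role in survival and dendrite growth, had the smallest F test p of the 34 (unadjusted p = 0.00864, limma adjusted p = 0.402). Its mean level for 0, 1, 3, 6, 12 and 24 h was -0.75, -0.78, -0.62, -0.40, -0.49 and -0.44, with SDs of 0.06, 0.04, 0.25, 0.27, 0.19 and 0.28. It lay at the floor on 4 of 7, 4 of 5, 3 of 5, 0 of 7, 0 of 7 and 1 of 7 arrays of these groups, so the early levels are bounds on most arrays. On 2 arrays at 6 h, 2 at 12 h and 4 at 24 h no probe was at the floor, so Rnf157 could not be counted there. The log2 changes were 0.34 ± 0.11 (SE) at 6 h (adjusted p = 0.402), 0.26 ± 0.11 at 12 h (adjusted p = 0.994) and 0.31 ± 0.11 at 24 h (adjusted p = 0.371), and 6 of 7 arrays lay above the control mean in each of these groups.

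On the deposited scale Rnf157 ran from 0.700 to 0.946 at 6 h and from 0.654 to 0.920 at 12 h, against 0.540 to 0.635 at 0 h, without overlap. The share of all probes free of overlap on this scale was not determined, so this separation has no background to be set against. It also includes the 2 arrays at 6 h and 2 at 12 h on which no probe was at the floor. On the deposited values the median log2 change of all probes was itself above 0, at 0.083 for 6 h and 0.075 for 12 h. At 24 h it ran from 0.540, on 1 array at the floor, to 0.934. It passed on the deposited values at 6 h (log2 0.55, limma adjusted p = 0.00613, 0.347% of all probes), 12 h (0.48, adjusted p = 0.0430, 0.174%) and 24 h (0.53, adjusted p = 0.00378, 1.91%). With the array range in the fit it passed at 6 h (0.47, adjusted p = 0.0404, 0.174%) and 24 h (0.52, adjusted p = 0.0204, 0.347%), and without the 8 arrays that never reach the floor it passed at 6 h (0.53, adjusted p = 0.0373, 0.347%). With 0.5 added before the log the 24 h value was 0.18 ± 0.065 (SE, adjusted p = 0.364). Under median centring Rnf157 passed at 24 h (0.46, adjusted p = 0.00989, 2.08%). Trend and robust variances (adjusted p = 0.0718), the replicate block (adjusted p = 0.0884) and array quality weights (adjusted p = 0.137) gave no call at 24 h. Nor did leaving out the 8 arrays (adjusted p = 0.135), leaving out dim probes (adjusted p = 0.446) or fitting only the arrays compared (adjusted p = 0.349). The part of the floor in these values was not tested.

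**Figure D3:**
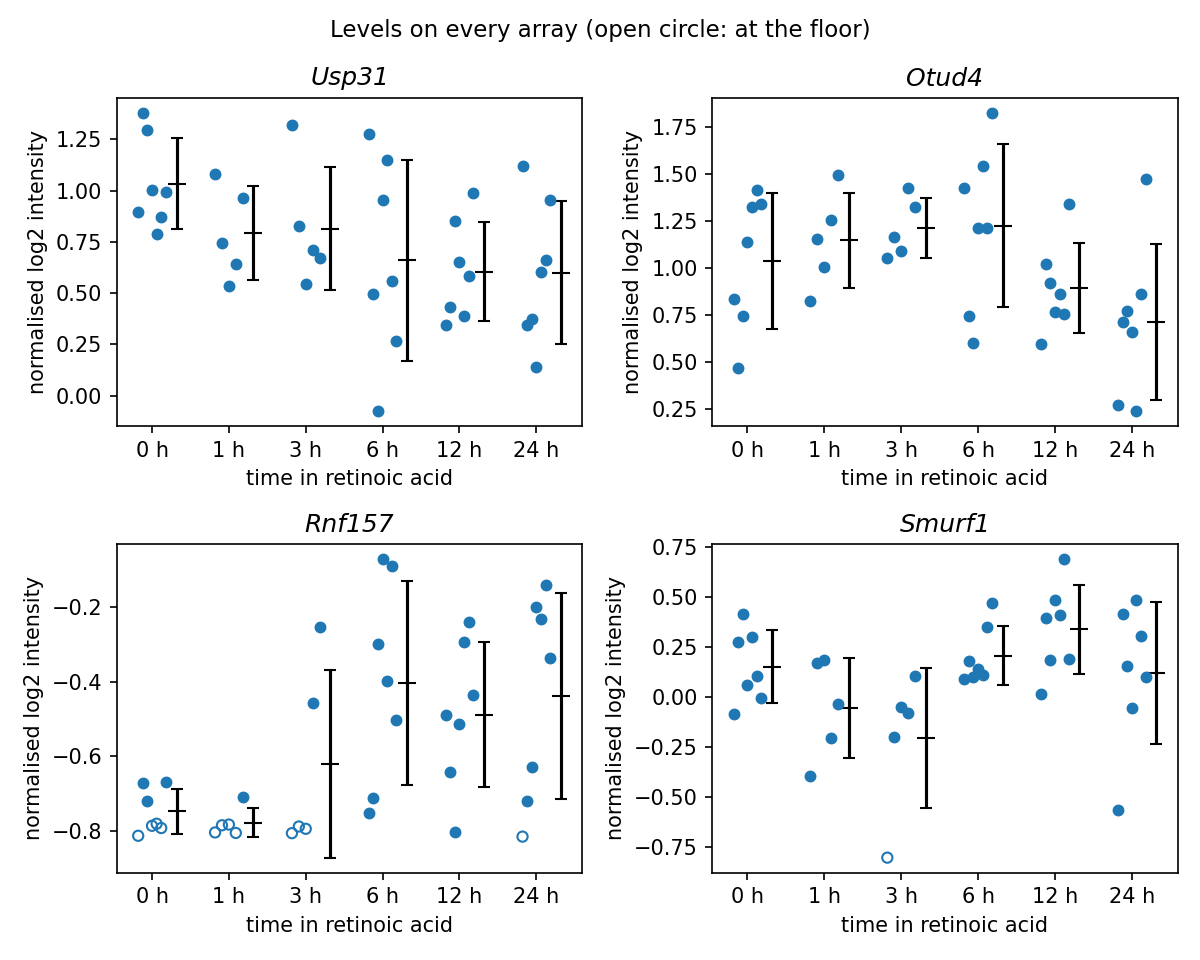
Normalised log2 intensity of Usp31, Otud4, Rnf157 and Smurf1 on each of the 38 arrays by time in retinoic acid, with the group mean and SD beside the points and open circles for arrays at the floor. Rnf157 lies above the floor on all arrays at 6 and 12 h but overlaps the controls, and Smurf1 is lowest at 3 h. At 6 h 2 arrays and at 12 h 2 arrays have no probe at the floor.

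Among the HECT ligases, Smurf1 had the smallest adjusted p of any member in any contrast. Smurf1 tags the GTPase RhoA and the SMAD proteins of BMP signalling for breakdown, and is known from neurons and neuroblastoma cells for acting on neurite growth. On the 5 arrays at 1 h it stood at -0.40, 0.17, 0.18, -0.21 and -0.04, and at 3 h at -0.81, -0.20, -0.05, -0.08 and 0.10, of which the first lay at the floor. At 12 h it ran from 0.02 to 0.69 with a median of 0.39, and at 24 h from -0.57 to 0.49 with a median of 0.15. The 0 h arrays lay between, from -0.09 to 0.42. Late minus early was 0.36 ± 0.11 (SE) on the log2 scale, a factor of 1.28 (unadjusted p = 0.00170, limma adjusted p = 0.0862), and 13 of 14 late arrays lay above the early mean.

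The exception was 24 h replicate 1 at -0.57, and without it Smurf1 was called (late minus early 0.42, limma adjusted p = 0.0148). The share of all probes called in that fit was not determined. The call was also made on the deposited values (0.34, adjusted p = 0.0484, 13.5% of all probes), with trend and robust variances (0.36, adjusted p = 0.0241, 13.9%), with array quality weights (0.26, adjusted p = 0.00969, 28.8%) and with the replicate block (0.33, adjusted p = 0.0207, 1.39%). Against 0 h Smurf1 was at -0.36 ± 0.15 at 3 h (unadjusted p = 0.0222, adjusted p = 0.844) and at -0.03 ± 0.14 at 24 h.

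None of the other HECT ligases passed the test after quantile normalization without weights. Herc3, late minus early, was at -0.23 ± 0.16 (log2 ± SE), and with array quality weights it passed at -0.34 (limma adjusted p = 0.0387), where 28.8% of all probes did. It was at 0.54 ± 0.23 at 3 h (unadjusted p = 0.0250, limma adjusted p = 0.844), with 0.03, 0.38, 0.40, 0.19 and -0.48 on the 5 arrays against a control range of -0.80 to 0.03, and at -0.01 ± 0.21 at 24 h. Huwe1, a very large ligase of the nucleus and cytoplasm, was at -0.48 ± 0.37 at 6 h and -0.36 ± 0.37 at 24 h. Nedd4, the founding ligase of its family, acts on channels and receptors at the membrane. Its log2 changes against 0 h lay between -0.08 and 0.04, although late minus early it passed on the deposited values (-0.73, adjusted p = 0.0151) and with median centring (-0.80, adjusted p = 0.0124), beside -0.05 after quantile normalization. Ube3c, which works at the proteasome, was at -0.30 ± 0.17 at 3 h, and Nedd4l at 0.48 ± 0.35.

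**Figure D4:**
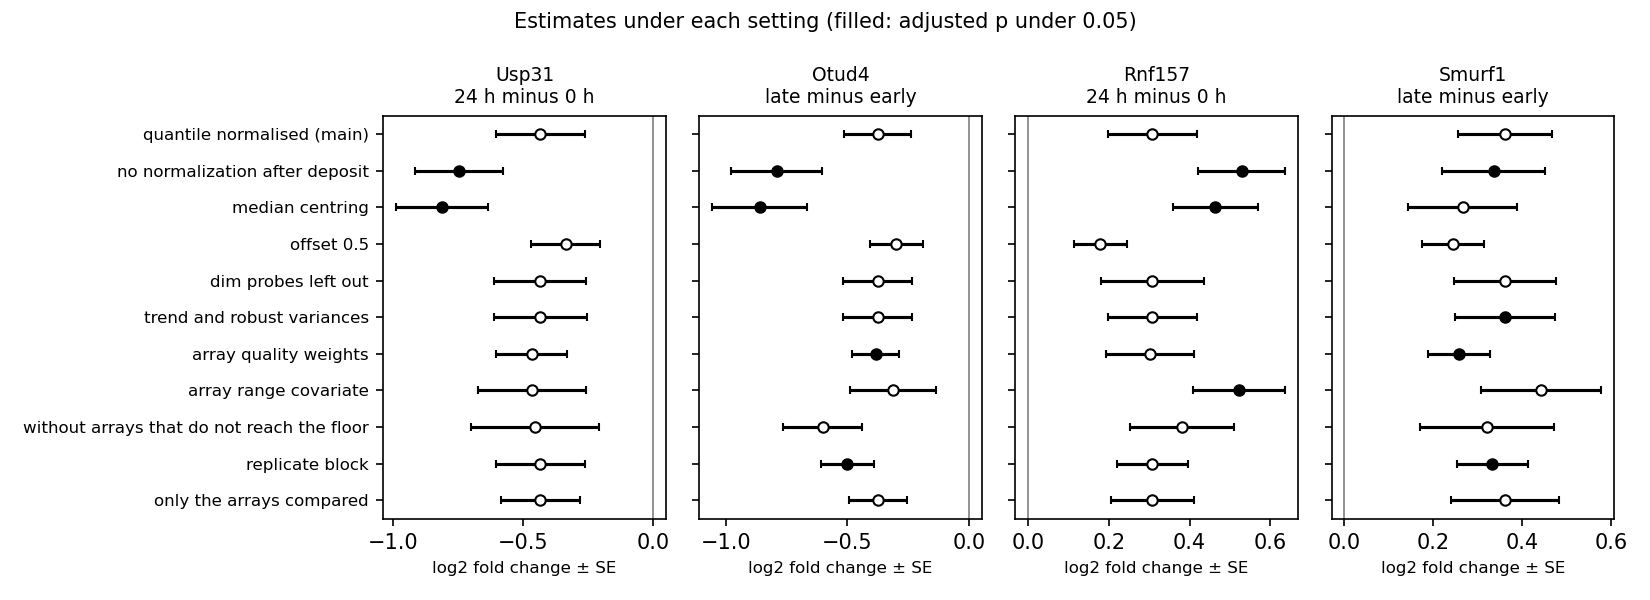
Log2 fold change with its SE for Usp31 and Rnf157 (24 h minus 0 h) and for Otud4 and Smurf1 (late minus early) under the fit described and 10 other settings, with filled points for an adjusted p under 0.05. All estimates keep their sign, and the size of Usp31 and Otud4 is largest with median centring, at -0.81 and -0.86.

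None of the other RING and N-degron ligases passed the test without array quality weights. Marchf4, a membrane ligase, was at 0.44 ± 0.19 (log2 ± SE) at 1 h (unadjusted p = 0.0254, limma adjusted p = 0.988), from values of -0.30, 1.02, -0.78, -0.81 and -0.36, so the highest value came from 1 array. It lay at the floor on 4 of 7 control arrays and 16 of all 38. In the F test with array quality weights Marchf4 passed (limma adjusted p = 0.0136), where 12.3% of all probes did. Trim37, a ligase that limits the formation of centrioles, was at -0.55 ± 0.44 at 1 h and -0.24 ± 0.40 at 24 h. Ubr2 and Ubr4, which recognise the N-terminal residue of their targets, were at -0.05 ± 0.27 and 0.25 ± 0.25 at 24 h.

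Ube4b, a U-box factor that lengthens ubiquitin chains, had the lowest fitted change of the 34 genes at 1, 3 and 6 h without passing the test. On the 5 arrays at 1 h it stood at 0.97, 0.41, 1.04, 0.25 and 0.51, against 0.93 to 1.97 with a median of 1.37 at 0 h. The groups overlapped and all 5 arrays lay below the control mean. The log2 change was -0.84 ± 0.41 (SE) at 1 h (unadjusted p = 0.0478, limma adjusted p = 0.988), -0.81 ± 0.37 at 6 h (adjusted p = 0.791) and -0.44 ± 0.37 at 24 h (adjusted p = 0.603). The SD of its level over 0, 1, 3, 6, 12 and 24 h was 0.35, 0.35, 0.77, 0.91, 0.97 and 0.54. Ubap2l was at -0.47 ± 0.26 at 24 h.

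BTB and Kelch proteins join targets to the cullin Cul3. Btbd7, known in mouse for epithelial branching, had the smallest p of the members at 3 h and at 24 h. It stood at -0.58, -0.79, -0.79, 0.02 and -0.02 on the 5 arrays at 3 h, 2 of them at the floor, and ran from -0.65 to -0.04 with a median of -0.42 at 24 h, against -0.50 to 0.39 with a median of 0.15 at 0 h. The groups overlapped, although 7 of 7 arrays at 24 h lay below the control mean. The log2 change was -0.50 ± 0.16 (SE) at 3 h (limma adjusted p = 0.528), -0.32 ± 0.15 at 12 h (adjusted p = 0.994) and -0.44 ± 0.15 at 24 h (unadjusted p = 0.00559, adjusted p = 0.268). With array quality weights it passed at 3 h (-0.57, adjusted p = 0.0335), where 2.6% of all probes did.

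Klhl29 was the 1 member of the 34 whose normalised levels did not overlap the controls, at 1 h, where 0.347% of all probes did not overlap. It stood at -0.29, -0.78, -0.38, -0.81 and -0.61 at 1 h, 2 of these arrays being at the floor, against -0.19 to 0.38 at 0 h. The log2 change at 1 h was -0.66 ± 0.24 (SE, unadjusted p = 0.00978, limma adjusted p = 0.988), and by 3 h it was -0.03 ± 0.24. With array quality weights Klhl29 passed late minus early (0.39, limma adjusted p = 0.0259), where 28.8% of all probes did. In the F test with these weights Klhl29 (adjusted p = 0.00117) and Klhl13 (adjusted p = 0.0231) passed, where 12.3% of all probes did. At 3, 6, 12 and 24 h 0 of 34 members were free of overlap, against 0%, 0.347%, 0% and 7.99% of all probes. At 24 h most of these were probes without a gene name, which the members could not include. Of the 473 named probes 2 lay wholly above and 2 wholly below the controls, against 2 and 44 of all 576. Kbtbd8, known for neural crest formation in frog and human cells, was at 0.52 ± 0.24 at 3 h, -0.04 ± 0.22 at 12 h and 0.44 ± 0.22 at 24 h. Btbd3, which orients dendrites in mouse cortex, stayed between -0.08 and 0.05, and Klhl13 and Klhl32 were at -0.12 ± 0.16 and -0.04 ± 0.20 at 24 h.

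Among the cullin Cul9 and the Dcaf, Zswim and F-box adaptors, 2 genes had an unadjusted p under 0.05 at 24 h and took opposite signs. Dcaf5 ran from 0.41 to 1.39 with a median of 0.93 at 24 h, against 0.08 to 0.92 with a median of 0.44 at 0 h, and its log2 change was 0.39 ± 0.16 (SE; limma adjusted p = 0.490). Dcaf1, the adaptor that the HIV protein Vpr binds in human cells, was at -0.52 ± 0.25 (adjusted p = 0.565). The F-box adaptors Fbxw11, a beta-TrCP protein that recognises phosphorylated targets such as beta-catenin, and Fbxo28 were lowest at 6 h, at -0.37 ± 0.18 and -0.41 ± 0.20 (both adjusted p = 0.791), while Fbxo21 was at -0.10 ± 0.24. Cul9, a cullin that binds p53, was at 0.19 ± 0.19 at 24 h. Zswim8, an adaptor in the breakdown of microRNAs by their targets, was at 0.15 ± 0.22, Zswim5 at -0.02 ± 0.30 and Zswim6 at 0.06 ± 0.05 at 24 h. Zswim6 lay at the floor on 20 of the 38 arrays, more than any other member.

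The rest of the ubiquitin system on the array was sparsely measured. Of 260 symbols of other ligases, peptidases, ubiquitin-like systems and proteasome subunits 14 were measured, and 0 passed at any time in limma. At an unadjusted p under 0.05 the counts for 1, 3, 6, 12 and 24 h were 1, 1, 0, 1 and 0. At 24 h 9 were higher and 5 lower, with a median of 0.06, beside a median of -0.03 for the 34. Fem1b, an adaptor of the cullin Cul2, was at 0.49 ± 0.14 (log2 ± SE) late minus early (adjusted p = 0.0862), and Syvn1, the ligase of protein quality control in the endoplasmic reticulum, at 0.36 ± 0.14 (adjusted p = 0.275).

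RefSeq promoter windows (GRCm38.p6, 250 bases before to 50 after a start site) were found for 32 of the 34 genes, 39 windows in all. Retinoic acid receptors bind pairs of a short half-site. The half-sites searched were AGGTCA and AGTTCA on both strands, and 4 of 39 member windows (10.3%), those of Btbd3, Klhl13 and Usp8, held at least 1, against 27.7% of all 32851 windows. A pair in 1 direction with 5 bases between them occurred in 0 of 39, against 0.0396% of all. The GC box GGGCGG, searched on both strands, was in 29 of 39 (74.4%), against 35.7% of all windows, which also include those of noncoding genes. A match is only a run of letters, and its absence here says nothing about sites outside these windows.

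The windows of Rnf157 (chr11:116412983-116413282, minus strand), Smurf1 (chr5:144965781-144966080, minus strand) and Usp31 (chr7:121707393-121707692, minus strand) are shown because most of the results turn on these genes, and that of Usp8 (chr2:126707078-126707377, plus strand) because it is the 1 peptidase window with a half-site. Each runs 5′ to 3′ in the direction of the gene, and capitals mark GC boxes (GGGCGG or CCGCCC) and, in Usp8, also the half-site TGAACT, which is AGTTCA on the other strand.
Rnf157: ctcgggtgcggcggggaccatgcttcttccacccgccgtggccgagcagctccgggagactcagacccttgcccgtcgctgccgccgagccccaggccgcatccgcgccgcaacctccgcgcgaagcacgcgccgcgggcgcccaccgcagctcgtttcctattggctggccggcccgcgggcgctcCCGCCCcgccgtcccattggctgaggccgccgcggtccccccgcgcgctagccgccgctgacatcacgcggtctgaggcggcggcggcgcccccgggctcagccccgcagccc
Smurf1: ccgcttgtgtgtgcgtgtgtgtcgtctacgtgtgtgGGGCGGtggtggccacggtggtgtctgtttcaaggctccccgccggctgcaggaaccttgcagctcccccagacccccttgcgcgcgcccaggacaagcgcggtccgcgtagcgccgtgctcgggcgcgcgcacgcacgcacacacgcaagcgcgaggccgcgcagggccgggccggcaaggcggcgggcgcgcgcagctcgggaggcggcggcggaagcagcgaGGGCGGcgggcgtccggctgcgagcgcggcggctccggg
Usp31: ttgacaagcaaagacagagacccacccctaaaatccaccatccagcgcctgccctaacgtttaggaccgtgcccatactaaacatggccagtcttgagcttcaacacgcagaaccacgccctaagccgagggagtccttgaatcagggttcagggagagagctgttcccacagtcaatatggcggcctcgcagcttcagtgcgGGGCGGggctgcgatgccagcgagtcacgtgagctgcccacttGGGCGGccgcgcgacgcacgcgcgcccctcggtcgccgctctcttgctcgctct
Usp8: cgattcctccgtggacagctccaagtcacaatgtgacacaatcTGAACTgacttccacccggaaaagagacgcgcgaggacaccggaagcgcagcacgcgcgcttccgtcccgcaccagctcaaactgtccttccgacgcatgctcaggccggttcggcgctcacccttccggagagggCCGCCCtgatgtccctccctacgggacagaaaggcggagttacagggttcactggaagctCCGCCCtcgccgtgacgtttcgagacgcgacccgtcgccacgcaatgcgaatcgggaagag
Rnf157 has 1 GC box and the other 3 windows have 2 each, and none of the first 3 windows holds a half-site.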

How the data were processed

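Per the labels' protocols, poly(A)+ RNA was isolated, given a Cy5 label, hybridised and quantified with Phoretix. The authors deposited linear intensity, with 576 probes on each of 38 arrays. Background correction, scaling and floor are not given in the sources used here, and no spot background was used. Probes were named from the platform annotation: 473 had a gene, and all 34 members were found in the RefSeq gene table by gene identifier.

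Values were taken to log2, quantile normalised and fitted with limma 3.58.1 in R 4.3.3, with the 6 groups as the only factor and 32 residual degrees of freedom. Tests were two-sided. No 2 arrays were identical. Labels do not say whether replicates were separate experiments, so p-values measure the spread between arrays. Precision is limited by how many arrays there are. The fit was tested on simulated data. Genes described in full were those past the threshold, the 3 smallest p of each of 6 contrasts and the smallest F test p of each role. Alternatives were other scalings, an offset of 0.5, dim probes left out, other variances, array weights, the array range, fewer arrays and the replicate block. Members, lists and tests were chosen with earlier results of these data known.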

Additional observations from a re-analysis of the deposited data

Results flagged for a closer look

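Of 72 groups of arrays tested (12 genes in 6 groups each), 5 held 1 array far from the others, where about 1 in 20 would by chance. That rate may not hold for genes with many arrays at the floor, such as Marchf4 (16 of 38) and Rnf157 (12 of 38). Marchf4 was at 1.02 on 1 h replicate 2, where the other 4 arrays ran from -0.81 to -0.30. It was at -0.56 on 3 h replicate 1, against -0.80 to -0.79 on the others, and at -0.28 on control replicate 3, against -0.81 to -0.65. Rnf157 was at -0.71 on 1 h replicate 5, against -0.81 to -0.78 on the others, which were at the floor. Cul9 was at -0.67 on control replicate 1, against -0.01 to 0.08. All values are normalised log2 intensity.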

How the results depend on the processing

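The count of 0 members called became 1 at 3 h with array quality weights (2.6%, here and below the share of all probes called in the same fit). At 6 h it became 1 with no normalization after deposit (0.347%), median centring (0.347%), the array range covariate (0.174%) and without the 8 arrays that do not reach the floor (0.347%). On the deposited values it became 1 at 12 h (0.174%). At 24 h it became 2 as deposited (1 higher, 1 lower, 1.91%), 3 with median centring (2.08%) and 1 with the range covariate (0.347%). For late minus early it became 8 as deposited (3 higher, 5 lower, 13.5%), 7 with median centring (11.3%) and 1 with trend and robust variances (13.9%). It became 5 with array weights (28.8%), 1 with the range covariate (1.04%) and 2 with the replicate block (1.39%). With single arrays left out it ran from 0 to 1, and the share of all probes was not determined there. For the F test it became 3 as deposited (2.95%), 3 with median centring (2.26%), 8 with array weights (12.3%), 1 with the range covariate (0.347%) and 1 without the 8 arrays (1.04%). The median log2 change of the peptidases was, as deposited and with median centring, -0.27 and -0.29 at 6 h, -0.40 and -0.43 at 12 h, -0.61 and -0.67 at 24 h and -0.46 and -0.53 late minus early. That of the ligases and adaptors was -0.16 and -0.23 at 24 h and -0.13 and -0.20 late minus early, -0.14 at 6 h and -0.087 at 12 h with median centring, -0.0023 at 6 h and 0.034 at 24 h with array weights, and for late minus early 0.016 with the range covariate and -0.0054 without the 8 arrays. The cause of these shifts was not tested. For late minus early 14 of 34 members were lower in the fit described, 23 as deposited and 25 with median centring. The 18 named values kept their sign in all 180 values from other settings and in all 684 values with 1 array left out, of which 23 and 1 gained a call. Over all groups, arrays with the same replicate number had a median correlation of 0.05 (87 pairs, 35 above 0.1), and 6 of 38 arrays were closest to their own number. The 1 h and 3 h groups differed from this: all 5 of their same-number pairs correlated above 0.1 (0.20 to 0.82, median 0.40, against -0.09 for different numbers). Those groups are the early side of late minus early. With 0 h no treated group had all its same-number pairs above 0.1. The same-number median with 0 h was 0.29 at 12 h (against -0.03 for different numbers) and 0.26 at 3 h (against -0.02). At 1, 6 and 24 h it was 0.07, 0.01 and 0.02. In the block fit the count of members called was 0 in the 5 times and the F test, and 2 late minus early. Of all probes 1.39% passed in this fit at 24 h, in the F test and late minus early, and 0% at the other times.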
